A study of Mus musculus with 4 samples.

Results

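The genes described here encode the proteins that copy DNA and the proteins that carry cells through mitosis. They form a list of 55 genes, of which 29 act in DNA replication and 26 in mitosis, out of 22459 gene symbols in the transcript tables. Each gene was represented by the RefSeq transcript with the most reads over the libraries. Their mRNA was measured by RNA-Seq in immortalized mouse brown preadipocytes from E18.5 embryos of the C57BL/6J strain, which lack Mll3 in every condition (Mll3-/-) and carry floxed Mll4 alleles (Mll4 f/f). The cells had been immortalized with SV40 large T antigen, and infected with adenovirus expressing GFP (Ad-GFP) or the Cre recombinase (Ad-Cre), which deletes Mll4. Ad-GFP cells therefore lack the H3K4 methyltransferase MLL3 alone, although the labels call them WT, and Ad-Cre cells lack MLL3 and MLL4. RNA was taken from confluent cells before induction (day 0) and after 2 days of the adipogenic cocktail of insulin, T3, dexamethasone, IBMX and indomethacin (day 2). Each of the 4 conditions has 1 library.

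DNA replication starts with licensing. The origin recognition complex, Cdc6 and Cdt1 load the MCM2-7 helicase on origins, and Cdc45 and the GINS complex then switch the helicase on for the polymerases and their sliding clamp. Most of these genes are transcribed late in G1 by E2F factors, which retinoblastoma family proteins hold in check and which large T antigen sets free by binding those proteins. Genes of mitosis are transcribed later in the cycle, through CCAAT boxes and CHR elements bound by NF-Y and by complexes of the DREAM and MuvB type with B-Myb and FoxM1. In some preadipocyte lines, confluent cells pass through further rounds of division after induction, before they turn into fat cells.

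The libraries held between 15831915 and 22099995 reads counted on transcripts, and the least covered member had 123 reads in its poorest library. Values are given as RPKM, reads per kilobase of transcript scaled to the mapped reads of the library. Ratios are on the log2 scale with exact binomial 95% intervals, which cover counting error only. The gap between the day ratios of the populations has an approximate 95% interval from Poisson counting error instead. With 1 library per condition no test was possible, so a ratio compares libraries and not conditions. Genes with an RPKM above 1 in at least 1 library were called expressed, and a ratio over 2.5-fold, or 1.32 on the log2 scale, was used as the cutoff. Mll4 itself (Kmt2d) had 6304, 8530, 6316 and 5595 reads in Ad-GFP day 0, Ad-GFP day 2, Ad-Cre day 0 and Ad-Cre day 2 cells, the order kept for every set of values below. A count over its whole transcript does not show the loss of the floxed exons. The 6 preadipocyte and mesenchymal markers were above 1 RPKM in every library and summed to 2830, 553, 2740 and 1040 RPKM, whereas the fat cell markers summed to 30.4, 2000, 15.7 and 490 RPKM. The 3 brown fat markers summed to 0.589, 2.14, 0.722 and 0.71 RPKM, with 1 of them above 1 RPKM in Ad-GFP cells at day 2. Cidea was at 0 in every library. At such levels these libraries, which end at day 2, do not show the brown identity of the cells. The paper followed Prdm16 and Ucp1 during adipogenesis by qRT-PCR. Endothelial, leukocyte and epithelial marker lists summed to at most 0.24 RPKM in any library. The skeletal muscle list summed to 18.4, 0.419, 48.5 and 3.44 RPKM, almost all of it Acta1, with Myog at 0.

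The promoters of several of these genes show the letters that E2F and CHR-binding factors are known to read. In each list, the 3 members with the most reads whose promoter holds such letters are printed below, as the 250 bases before the start of the gene in RefSeq, on the gene's own strand. Capitals mark E2F letters (TTTCGCGC, TTTGGCGC, TTTCCCGC or TTTGCCGC) and CHR letters (TTTGAA or TTCGAA), on either strand. The replication genes shown were Mcm2 (chr6:88848775-88849024 of NCBI37/mm9, minus strand), Mcm5 (chr8:77633158-77633407, plus strand) and Mcm6 (chr1:130256283-130256532, minus strand). The mitosis genes were Mki67 (chr7:142908063-142908312, minus strand), Top2a (chr11:98885504-98885753, minus strand) and Cdc20 (chr4:118109949-118110198, minus strand).
Mcm2: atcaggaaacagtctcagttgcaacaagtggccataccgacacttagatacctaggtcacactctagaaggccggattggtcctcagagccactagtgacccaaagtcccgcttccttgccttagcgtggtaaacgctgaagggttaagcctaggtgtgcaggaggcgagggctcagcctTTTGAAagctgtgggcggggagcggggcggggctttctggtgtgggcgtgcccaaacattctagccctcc
Mcm5: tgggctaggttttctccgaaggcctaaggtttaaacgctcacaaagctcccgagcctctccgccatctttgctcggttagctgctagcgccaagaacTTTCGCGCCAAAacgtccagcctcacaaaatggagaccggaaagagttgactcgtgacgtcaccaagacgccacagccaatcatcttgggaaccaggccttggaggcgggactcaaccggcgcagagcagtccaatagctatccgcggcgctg
Mcm6: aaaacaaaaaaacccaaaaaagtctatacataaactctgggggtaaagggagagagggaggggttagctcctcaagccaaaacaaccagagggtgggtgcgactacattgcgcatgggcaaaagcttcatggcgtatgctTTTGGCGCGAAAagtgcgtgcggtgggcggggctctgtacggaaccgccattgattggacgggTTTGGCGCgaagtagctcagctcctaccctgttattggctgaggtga
Mki67: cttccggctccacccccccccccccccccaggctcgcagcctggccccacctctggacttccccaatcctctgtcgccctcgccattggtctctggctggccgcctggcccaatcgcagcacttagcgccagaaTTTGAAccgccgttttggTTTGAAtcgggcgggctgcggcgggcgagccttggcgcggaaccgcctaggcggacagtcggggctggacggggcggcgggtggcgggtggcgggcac
Top2a: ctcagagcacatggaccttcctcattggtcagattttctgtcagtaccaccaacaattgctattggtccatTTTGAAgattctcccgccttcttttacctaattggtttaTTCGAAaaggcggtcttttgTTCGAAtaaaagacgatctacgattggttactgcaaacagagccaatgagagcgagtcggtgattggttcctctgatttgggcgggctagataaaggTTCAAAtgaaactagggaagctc
Cdc20: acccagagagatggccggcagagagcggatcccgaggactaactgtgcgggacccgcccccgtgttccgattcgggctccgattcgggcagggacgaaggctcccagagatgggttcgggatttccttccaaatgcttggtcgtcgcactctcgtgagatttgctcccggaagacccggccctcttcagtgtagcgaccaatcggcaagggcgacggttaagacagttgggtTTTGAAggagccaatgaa

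In Mcm5, a pair of E2F matches on opposite strands overlapped between 153 and 142 bases before the start. Mcm6 held a like pair between 110 and 99 bases before the start and another match between 47 and 40 bases. Mcm2 had no E2F match in this window and a CHR match from 70 to 65 bases before the start. Among the mitosis genes, Top2a held 4 CHR matches, Mki67 held 2, and Cdc20 held 1 match that began 18 bases before the start. Promoters were found for 44 of the 55 members. E2F letters stood in 7 of the 26 replication promoters (26.9%, from 24 genes) and in 1 of the 20 mitosis promoters (5.0%, that of Cdk1), against 1.86% of all 32851 mouse promoters of the same length. In the wider lists of replication and mitosis genes described further on, E2F letters stood in 10.3% and 8.51% of promoters. CHR letters stood in 19.2% of replication promoters, 35.0% of mitosis promoters and 17.1% of all promoters. CCAAT, searched on both strands and free to overlap the other motifs, stood in 69.2% of replication promoters, 85.0% of mitosis promoters and 33.8% of all promoters. These matches describe the letters in this window and do not show binding.

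All 55 genes were above 1 RPKM in every library, at day 0 as well as day 2. The median replication gene stood at 18.0, 22.3, 19.0 and 22.4 RPKM, and the summed RPKM of the 29 genes was 848, 864, 820 and 846, within a narrow band. The median mitosis gene stood at 31.1, 27.5, 25.5 and 17.8 RPKM. The 26 mitosis genes summed to 813, 665, 736 and 533 RPKM and took 0.289%, 0.239%, 0.258% and 0.195% of the counted reads, lowest in Ad-Cre cells at day 2. Fewer cycling cells and less RNA per cell cannot be told apart in these libraries. The 6 subunits of the MCM2-7 ring, which are assembled in equal number, had a median of 56.3, 57.7, 56.2 and 57.8 RPKM. The highest subunit was 1.6 times the lowest in Ad-GFP cells at day 0 and 2.31 times the lowest at day 2. It was Mcm2 in 3 of the libraries and Mcm7 in Ad-Cre cells at day 2.

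**Figure D1:**
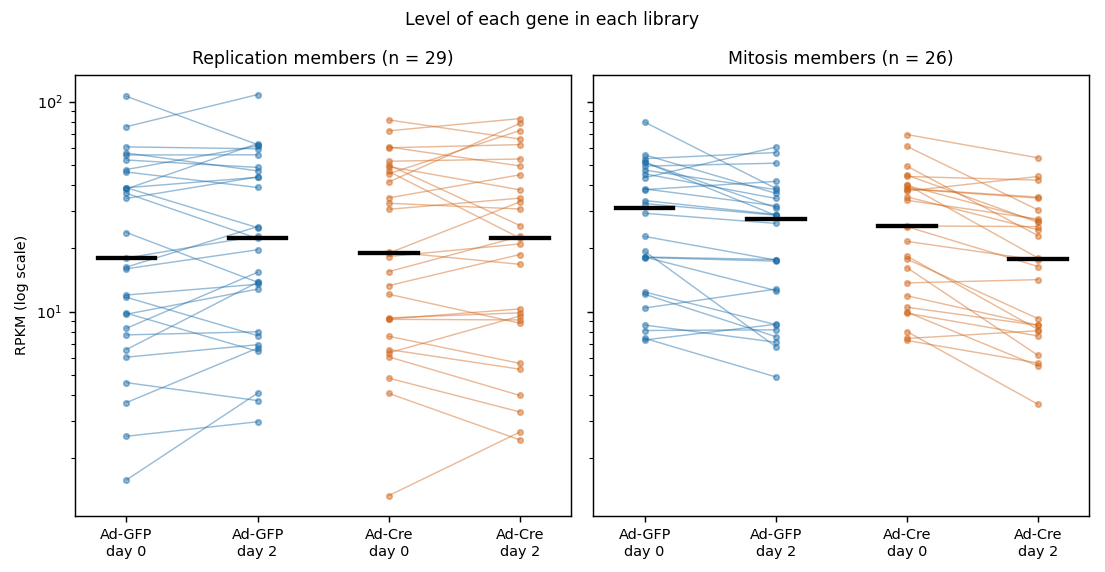
RPKM on a log axis of each of the 55 genes in the 4 libraries, with replication genes in the left panel and mitosis genes in the right panel. Points are genes, thin lines join day 0 to day 2 of the same gene, and black bars are medians. All values are above 1 RPKM, from 1.33 (E2f2, Ad-Cre day 0) to 108 (Mcm2, Ad-GFP day 2).

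From day 0 to day 2 the replication genes stayed near the level of other genes, and the mitosis genes were lower at day 2 than at day 0 in both cell populations. The median log2 ratio of day 2 over day 0 was 0.17 for replication genes and -0.27 for mitosis genes in Ad-GFP cells, beside 0.14 for all expressed genes. In Ad-Cre cells it was 0.03 for replication, -0.42 for mitosis and -0.01 for all expressed genes. In Ad-GFP cells 19 of the 26 mitosis genes were lower at day 2 and 17 had an interval wholly below 0, against 33.8% of all expressed genes, while 5 had an interval wholly above 0, against 45.4%. In Ad-Cre cells 23 of the 26 were lower and 21 had an interval wholly below 0, against 40.4%, and 1 (Ccnb2) had an interval above 0, against 39.3%. Of the 29 replication genes, 10 lay below 0 and 15 above it in Ad-GFP cells, and 11 below and 11 above in Ad-Cre cells. An interval is narrower for a gene with more reads, and the members are well covered, so these shares also carry read depth.

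Few members moved far. Over the 2.5-fold cutoff in Ad-GFP cells, E2f2 alone was higher at day 2, against 8.43% of expressed genes, and Kif23 alone was lower, against 13.0%. In Ad-Cre cells Kif23 alone was lower, against 10.5%, and no member was higher, against 9.63%. A 2-fold cutoff added Rfc4 (higher) and Cdc20 (lower) in Ad-GFP cells, where 14.4% of expressed genes were higher and 16.4% lower. In Ad-Cre cells the same cutoff gave 7 lower members, Rrm2 and the mitosis genes Kif23, Kif11, Mki67, Bub1, Foxm1 and Ccna2, and 1 higher member, E2f2, against 16.5% and 15.4% of expressed genes. Over the 55 members the share past either cutoff was below that of expressed genes in each direction, while 6 of the 26 mitosis genes were over 2-fold lower in Ad-Cre cells. That count of 6 rested on values between -1.16 and -1.01 apart from Kif23. It was 6 when centred on the median of all expressed genes, 5 with TMM scaling and 1 (Kif23) with summed counts as library size. It was 2 without the trend over transcript length, and 3 (Plk1, Foxm1 and Kif23) without that over length and GC content.

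**Figure D2:**
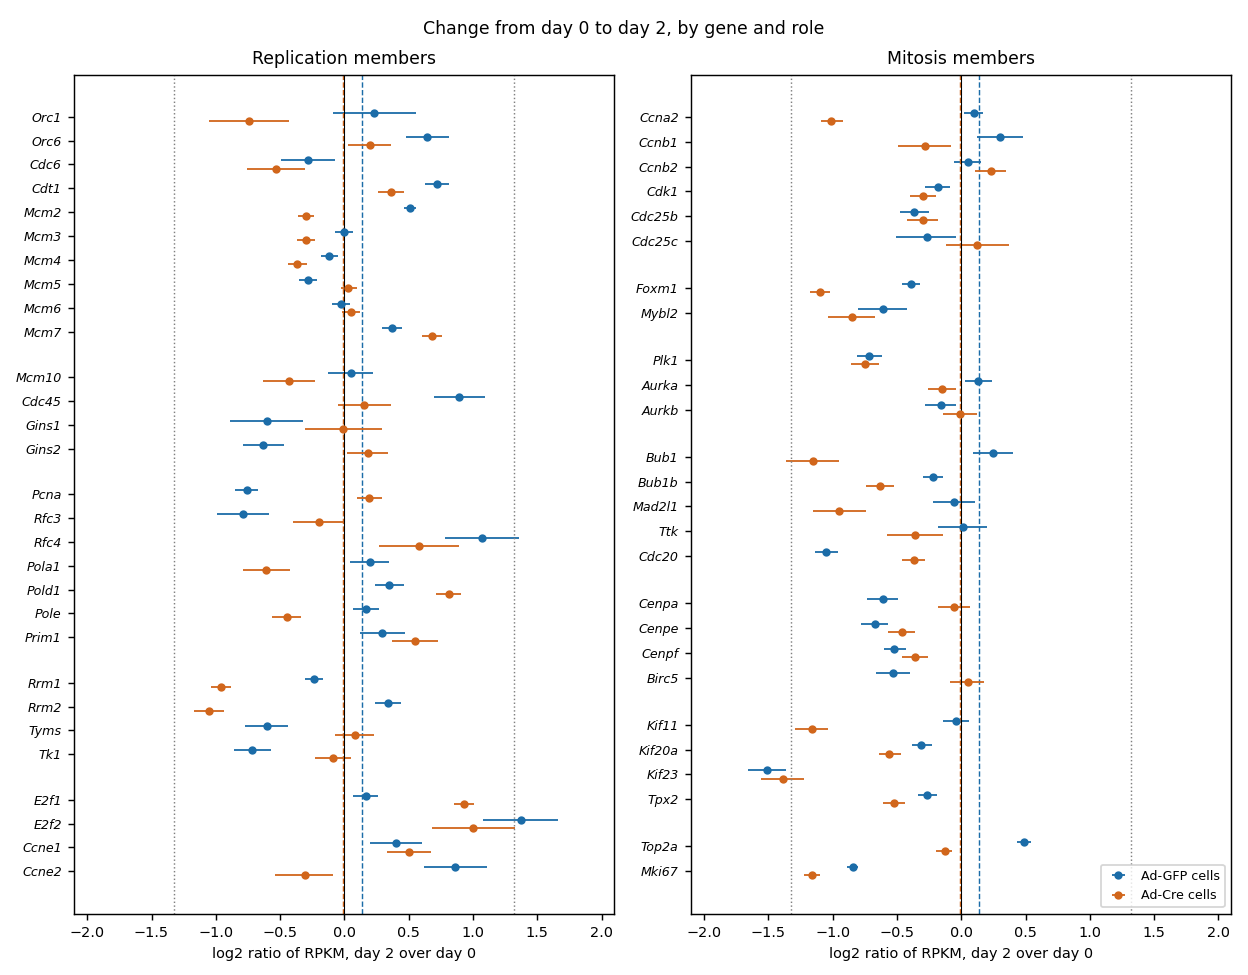
Log2 ratio of RPKM, day 2 over day 0, for each replication gene (left panel) and mitosis gene (right panel) in Ad-GFP and Ad-Cre cells, with exact binomial 95% intervals as bars, dashed lines at the medians of all expressed genes and dotted lines at the 2.5-fold cutoff. E2f2 at 1.37 in Ad-GFP cells and Kif23 at -1.51 and -1.39 are the points past the dotted lines.

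Between the cell populations, no member passed the 2.5-fold cutoff at either day. At day 0, before induction, 4.18% of expressed genes were over 2.5-fold lower in Ad-Cre cells and 2.09% higher, and the members ran from -0.54 (Pcna) to 0.84 (Ccne2). None of them was over 2-fold lower or higher at day 0, against 6.33% and 3.43% of expressed genes. The median ratio of Ad-Cre over Ad-GFP at day 0 was -0.01 for replication genes, -0.16 for mitosis genes and -0.02 for all expressed genes. At day 0, 13 mitosis genes had an interval below 0, against 28.1% of expressed genes, and 3 above, against 26.8%. At day 2, 9.89% of expressed genes were over 2.5-fold lower in Ad-Cre cells and 9.61% higher, and the members ran from -1.26 (Bub1) to 0.85 (E2f1). The medians at day 2 were -0.18 for replication genes, -0.25 for mitosis genes and -0.14 for all expressed genes. At day 2, 16 mitosis genes lay below 0 and 4 above it, against 45.7% and 34.0% of expressed genes, and 14 replication genes lay below 0 and 11 above. Bub1 and Kif11 were over 2-fold lower, against 17.5% of expressed genes, and no member was over 2-fold higher, against 14.2%.

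The ratio at day 2 moved with base composition and transcript length over the whole transcriptome. Across 4 equal groups of expressed genes, ordered from low to high GC content, the median ratio of Ad-Cre over Ad-GFP at day 2 was -0.62, -0.40, -0.01 and 0.48, whereas at day 0 it was 0.04, -0.04, -0.05 and -0.01. The members in the same groups had medians at day 2 of -0.53 (16 genes), -0.21 (21 genes), -0.00 (9 genes) and 0.17 (9 genes). By 4 such groups of transcript length, from short to long, the members had medians of 0.21, -0.20, -0.29 and -0.61. Over the 55 members, which share the libraries, the ratio at day 2 and GC content had a Pearson r of 0.42 and a Spearman rho of 0.39. After the trend over length and GC content in all expressed genes was taken out, the median of the mitosis genes at day 2 was 0.03 in place of -0.25, and that of the replication genes 0.14 in place of -0.18. For the mitosis genes the ratio of day 2 over day 0 kept its direction under that correction, with a median of -0.42 with Ad-GFP and -0.29 with Ad-Cre. The direction of both medians between the populations at day 2 thus turned with the correction, and the part of base composition in the library was not tested. Each value below is given uncorrected unless it is named as corrected.

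**Figure D3:**
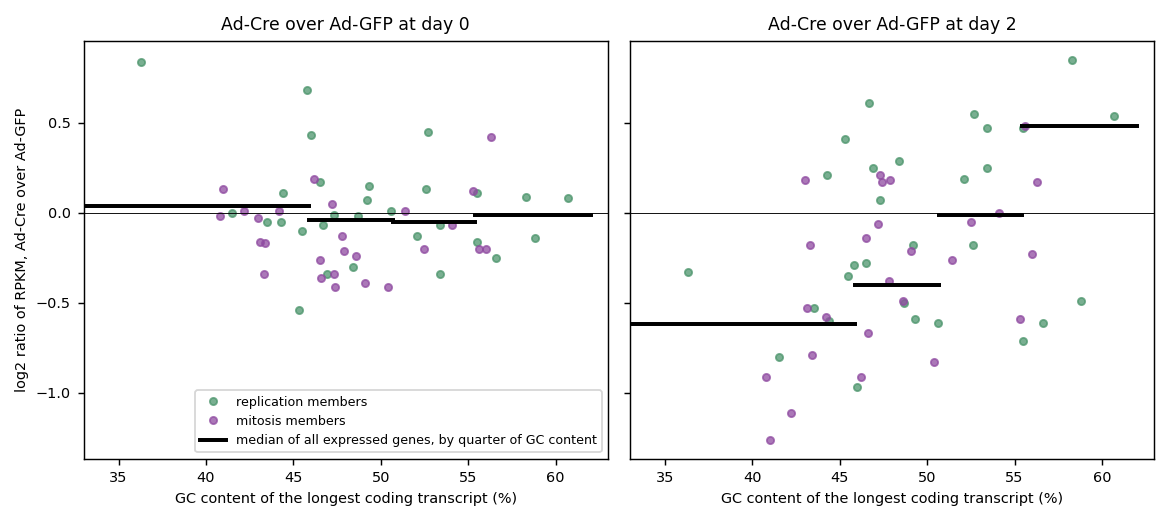
Log2 ratio of Ad-Cre over Ad-GFP at day 0 and at day 2 against the GC content of the transcript, for the 55 members as points, with the median of all expressed genes in each of 4 groups by GC content as black bars. The bars are level at day 0, between -0.05 and 0.04, and climb from -0.62 to 0.48 at day 2, with the members spread around them.

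Among the licensing genes, the MCM ring was the most abundant set. Mcm2, the helicase subunit with the most reads in the replication list, measured 76.0, 108, 81.8 and 66.3 RPKM. It was the highest in Ad-GFP cells at day 2, at 0.51 (0.46 to 0.56) over day 0, and the lowest in Ad-Cre cells at day 2, at -0.30 (-0.36 to -0.24). Mcm7 measured 47.5, 61.5, 45.3 and 72.8 RPKM, high at day 2 in both populations. Mcm3, Mcm4, Mcm5 and Mcm6 kept between 38.0 and 62.4 RPKM in every library. Cdt1, the loader that is degraded once replication has begun, measured 38.4, 63.1, 34.8 and 44.8 RPKM, higher at day 2 in both populations. The corrected day ratio of Cdt1 was 0.79 with Ad-GFP and -0.05 with Ad-Cre, in place of 0.72 and 0.36. Cdc6, its partner in loading, measured 4.59, 3.77, 4.82 and 3.33 RPKM, slightly lower at day 2 in both. Orc1, the largest subunit of the origin recognition complex, was low throughout at 2.55, 2.99, 4.08 and 2.45 RPKM. It had the third largest gap between the populations' day ratios among replication genes, -0.97 (-1.41 to -0.53), on 132 to 240 reads. After the correction that gap was -0.39. Many replication genes then had a gap larger in size, from Tyms (1.44), Rrm2 (-1.11), Pcna (0.99), Mcm2 (-0.85) and Cdt1 (-0.85) down to Prim1 (0.40).

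The genes that activate the helicase did not move together. Cdc45 measured 8.33, 15.4, 9.23 and 10.3 RPKM and was highest in Ad-GFP cells at day 2, whereas Gins2, a GINS subunit, measured 38.9, 25.1, 30.7 and 34.7 RPKM and was lowest there. Mcm10, which helps to start the helicase, measured 7.75, 8.02, 7.63 and 5.67 RPKM, lowest in Ad-Cre cells at day 2. Gins1, another GINS subunit, measured 11.7, 7.68, 9.19 and 9.13 RPKM, lowest in Ad-GFP cells at day 2 as Gins2 was.

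Pcna, the sliding clamp, measured 106, 62.4, 72.6 and 83.0 RPKM. It was 1.7-fold lower at day 2 in Ad-GFP cells, at -0.76 (-0.85 to -0.67), and slightly higher at day 2 in Ad-Cre cells, at 0.19 (0.10 to 0.29). Near-identical copies elsewhere in the genome match 82.8% of the Pcna transcript, so its reads could have been shared with them and its values are uncertain. The same holds for 7 other members, Tk1 (83.0%), Mcm7 (80.2%), Ccnb1 (76.4%), Mybl2 (38.9%), Rrm2 (18.8%), Foxm1 (12.9%) and Tyms (11.6%). The subunits of the clamp loader parted, with Rfc3 at 23.8, 13.8, 19.3 and 16.8 RPKM and Rfc4 at 6.60, 13.8, 6.36 and 9.53 RPKM. Rfc4 stood at 1.07 (0.78 to 1.36) in Ad-GFP cells, and Rfc3 was the lowest replication gene there at -0.79 (-0.99 to -0.59). Pola1, the catalytic subunit of polymerase alpha, measured 6.07, 6.96, 6.09 and 3.99 RPKM and was lowest in Ad-Cre cells at day 2. Pold1, that of polymerase delta, measured 18.0, 22.9, 19.0 and 33.3 RPKM and was highest there. The corrected ratio of Ad-Cre over Ad-GFP at day 2 was 0.10 for Pola1 and 0.06 for Pold1, in place of -0.80 and 0.54.

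Nucleotide supply held the replication gene with the largest gap between the populations. Rrm2, the small subunit of ribonucleotide reductase, measured 34.6, 43.8, 46.5 and 22.4 RPKM, lowest in Ad-Cre cells at day 2. Its ratio of day 2 over day 0 was 0.34 (0.24 to 0.44) with Ad-GFP and -1.05 (-1.17 to -0.94) with Ad-Cre, a gap of -1.39 (-1.54 to -1.24) that was -1.11 after the correction. Rrm1, the large subunit, measured 46.2, 39.0, 49.9 and 25.7 RPKM and was likewise lowest in Ad-Cre cells at day 2. The corrected ratio of Ad-Cre over Ad-GFP at day 2 was 0.14 for Rrm1 and -0.61 for Rrm2, in place of -0.60 and -0.97. The salvage enzyme Tk1 measured 36.6, 22.3, 32.8 and 30.8 RPKM, lowest in Ad-GFP cells at day 2. Tyms, which makes thymidylate, measured 9.83, 6.47, 9.34 and 9.87 RPKM on a transcript that RefSeq records as non-coding. At day 2 it stood at 0.61 (0.45 to 0.77) in Ad-Cre over Ad-GFP and at 1.33 after the correction, the sole member past the 2.5-fold cutoff by that route.

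The 4 regulators of entry into S phase each had an interval above 0 in Ad-GFP cells, against 45.4% of expressed genes. E2f1, an activating E2F factor, measured 38.9, 43.6, 41.4 and 78.8 RPKM and stood out in Ad-Cre cells at day 2. There it was 1.81-fold above Ad-GFP cells, at 0.85 (0.78 to 0.93), and 0.52 after the correction. E2f2, also an activator, was the lowest gene of the replication list at day 0, at 1.58, 4.09, 1.33 and 2.67 RPKM on 129, 445, 123 and 228 reads. It was 2.58-fold higher at day 2 in Ad-GFP cells, at 1.37 (1.08 to 1.66), and 1.00 (0.68 to 1.33) on the log2 scale in Ad-Cre cells. The E-type cyclins drive Cdk2 at this step. Ccne1 measured 9.72, 12.8, 13.3 and 18.7 RPKM, higher at day 2 in both populations. Ccne2 measured 3.69, 6.70, 6.60 and 5.32 RPKM, lowest in Ad-GFP cells at day 0, with a gap between the day ratios of -1.17 (-1.50 to -0.85) that was -0.34 after the correction.

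**Figure D4:**
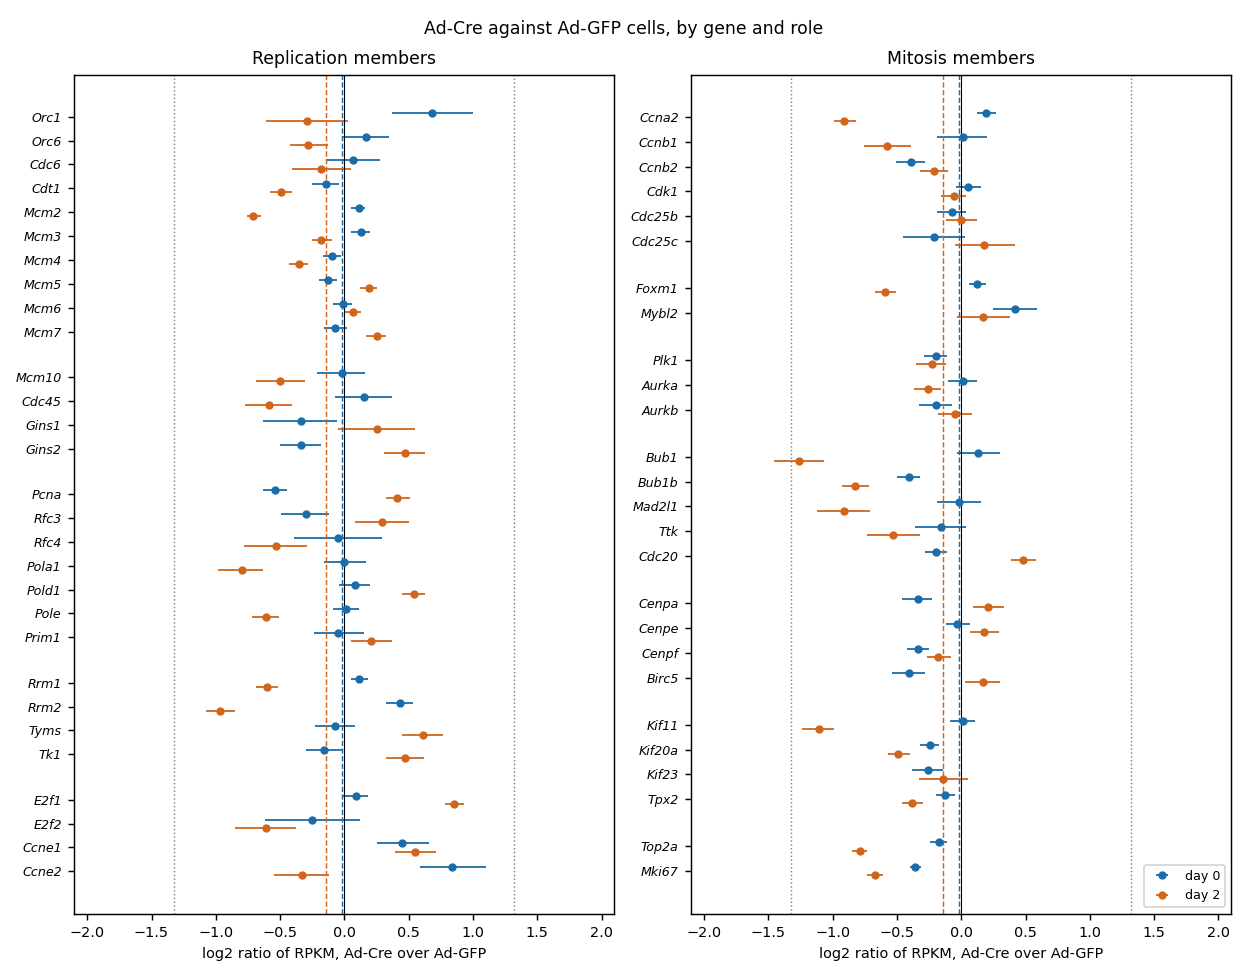
Log2 ratio of RPKM, Ad-Cre over Ad-GFP, for each replication gene (left panel) and mitosis gene (right panel) at day 0 and day 2, with exact binomial 95% intervals as bars, dashed lines at the medians of all expressed genes and dotted lines at the 2.5-fold cutoff. No point passes the dotted lines, and Bub1 (-1.26) and Kif11 (-1.11) at day 2 lie nearest to them.

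In mitosis, cyclin A2 had the lowest day ratio in Ad-Cre cells among the cyclins and their kinase. Ccna2, which acts in S phase and on the way into mitosis, measured 53.5, 57.2, 61.2 and 30.5 RPKM, with Ad-Cre cells at day 2 lowest. Its day ratio was 0.10 (0.02 to 0.17) with Ad-GFP and -1.01 (-1.09 to -0.92) with Ad-Cre. Ccnb1, the cyclin of mitotic entry, measured 10.4, 12.8, 10.5 and 8.60 RPKM and stood at -0.58 (-0.76 to -0.39) in Ad-Cre over Ad-GFP at day 2, and at -0.01 after the correction. Ccnb2, a related cyclin, measured 49.3, 50.9, 37.5 and 44.0 RPKM, lower with Ad-Cre at both days. Cdk1, the kinase of these cyclins, measured 32.7, 28.8, 33.9 and 27.6 RPKM. The phosphatases that activate Cdk1 were within narrow ranges, with Cdc25b at 22.8, 17.6, 21.6 and 17.6 RPKM and Cdc25c at 8.63, 7.15, 7.45 and 8.11 RPKM. The factors that drive the mitotic genes were lower at day 2 in both populations. Foxm1 measured 45.3, 34.6, 49.3 and 23.0 RPKM, at -0.39 (-0.46 to -0.32) with Ad-GFP and -1.10 (-1.18 to -1.02) with Ad-Cre. Mybl2, which encodes B-Myb, measured 7.46, 4.89, 9.95 and 5.51 RPKM, at -0.61 (-0.80 to -0.42) and -0.85 (-1.04 to -0.67).

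Of the mitotic kinases, Plk1, which acts from entry to cytokinesis, measured 51.4, 31.3, 44.7 and 26.6 RPKM and was lower at day 2 in both populations. The Aurora kinases stayed closer together, with Aurka at 38.1, 41.7, 38.4 and 34.7 RPKM and Aurkb at 29.4, 26.3, 25.6 and 25.4 RPKM. The spindle checkpoint delays anaphase until chromosomes are attached. Its 4 genes and its target Cdc20 each had an interval below 0 in Ad-Cre cells, against 40.4% of expressed genes. Bub1, a checkpoint kinase, measured 7.33, 8.70, 8.04 and 3.62 RPKM, on 547, 867, 680 and 283 reads. The 3 values other than Ad-Cre day 2 lay close together, and the last was 2.4-fold below Ad-GFP cells of the same day, at -1.26 (-1.46 to -1.07). The corrected ratio was -0.43. The gap between the day ratios of Bub1, -1.40 (-1.65 to -1.14), was the largest of any member, with an interval that overlapped that of Rrm2, and -0.53 after the correction. Cdc20, the activator of the anaphase-promoting complex, differed from Bub1 and measured 79.9, 38.6, 69.7 and 54.0 RPKM, lower at day 2 in both populations and lowest in Ad-GFP cells. The rest of the group lay between these patterns, with Bub1b, Mad2l1 and Ttk at -0.83, -0.91 and -0.53 in Ad-Cre over Ad-GFP at day 2. After the correction these were -0.38, -0.66 and 0.00, and the ratio of Cdc20 was 0.00 in place of 0.48.

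The 4 centromere and passenger genes each had an interval below 0 in Ad-GFP cells, between -0.67 and -0.52, against 33.8% of expressed genes. In Ad-Cre cells their median was -0.21, 2 of the 4 intervals held 0 and Birc5 stood at 0.05. The corrected day ratios in Ad-Cre cells were -0.38 for Cenpa, 0.30 for Cenpe, 0.41 for Cenpf and 0.37 for Birc5. In Ad-GFP cells they were -0.83, -0.88, -0.73 and -0.73 in the same order. Cenpa, the histone H3 variant of centromeres, measured 55.8, 36.6, 44.0 and 42.3 RPKM and was highest in Ad-GFP cells at day 0. Cenpe, a kinetochore motor, measured 12.1, 7.60, 11.9 and 8.62 RPKM, and Cenpf, a kinetochore protein, 12.4, 8.67, 9.83 and 7.66 RPKM. Birc5, the survivin of the passenger complex, measured 18.2, 12.6, 13.7 and 14.2 RPKM. Of the 4 motors and spindle genes, 3 had an interval below 0 in Ad-GFP cells, against 33.8% of expressed genes, with Kif11 at -0.04 (-0.14 to 0.06), and all 4 had one in Ad-Cre cells, against 40.4%. Kif23, a kinesin of the central spindle in cytokinesis, measured 19.4, 6.81, 16.2 and 6.19 RPKM on 1145, 536, 1083 and 382 reads. Both values of day 0 lay above both values of day 2, 2.86-fold in Ad-GFP cells and 2.62-fold in Ad-Cre cells, at -1.51 (-1.66 to -1.36) and -1.39 (-1.56 to -1.22). After the correction these were -1.83 and -1.03. Kif11, the kinesin that pushes spindle poles apart, measured 18.2, 17.7, 18.4 and 8.22 RPKM, with Ad-Cre cells at day 2 alone apart. It stood at -1.11 (-1.24 to -0.99) in Ad-Cre over Ad-GFP at day 2 and at -0.24 after the correction. Tpx2, a spindle assembly factor, measured 38.4, 31.9, 35.2 and 24.5 RPKM.

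The genes of chromosome structure gave the most reads of the mitosis list and did not share a pattern. Mki67, the proliferation marker that coats mitotic chromosomes, measured 51.5, 28.7, 40.2 and 18.0 RPKM, lower at day 2 in both populations, at -0.84 (-0.89 to -0.80) and -1.16 (-1.22 to -1.10). Top2a, the topoisomerase that untangles sister chromatids, measured 43.4, 60.7, 38.5 and 35.1 RPKM and was highest in Ad-GFP cells at day 2. Its ratio there was 0.49 (0.43 to 0.54), the highest of the mitosis list, and -0.13 (-0.20 to -0.07) in Ad-Cre cells. After the correction the day ratios of Top2a were 0.25 with Ad-GFP and 0.50 with Ad-Cre, and those of Mki67 were -1.06 and -0.38. The corrected ratios of Ad-Cre over Ad-GFP at day 2 were 0.30 for Mki67 and 0.05 for Top2a, in place of -0.67 and -0.79.

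**Figure D5:**
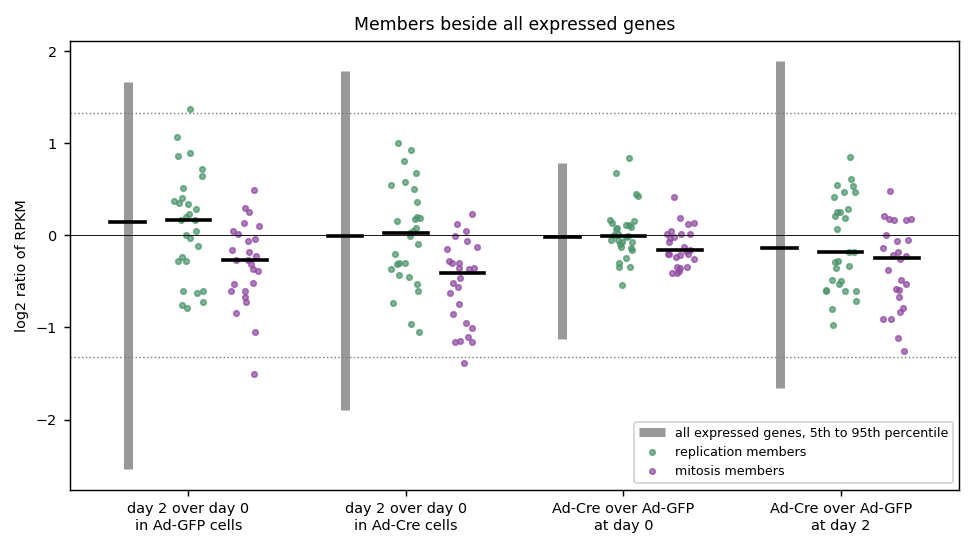
Log2 ratios of the replication and mitosis genes, as points, in the 4 comparisons, beside the range from the 5th to the 95th percentile and the median of all expressed genes. Dotted lines mark the 2.5-fold cutoff and black bars are medians. The members lie inside that range apart from Ccne2 at day 0 (0.84), and the mitosis points sit lower than the replication points in both day comparisons.

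The gap between the day ratios, Ad-Cre minus Ad-GFP, had a median of -0.25 in the replication and in the mitosis list, beside -0.09 for all expressed genes. After the correction it was 0.06 and 0.16. Each day ratio and each Ad-Cre over Ad-GFP ratio shares libraries with others, so the comparisons are not independent. The spread of the members was narrower than that of all expressed genes. Every member had at least 123 reads in each library, whereas an expressed gene needed an RPKM above 1 in 1 library only. The part of read depth in this spread was not tested. In Ad-GFP cells the members' day ratios ran from -1.51 to 1.37, while the 5th and 95th percentiles of all expressed genes were -2.54 and 1.66. At day 2 the members' ratios of Ad-Cre over Ad-GFP ran from -1.26 to 0.85, beside -1.66 and 1.89 for all expressed genes.

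Further genes of the same processes were listed apart from the 55. The 34 other replication genes, all expressed, had a median day ratio of 0.12 with Ad-GFP and 0.20 with Ad-Cre. After the correction these medians were 0.05 and 0.33. In Ad-GFP cells the lowest of the 34 was Lig1, the ligase that seals Okazaki fragments, at -0.87 (-0.98 to -0.77). The highest was Orc2, a subunit of the origin recognition complex, at 1.48 (1.28 to 1.68). The 49 other mitosis genes had a median of -0.17 with Ad-GFP and -0.34 with Ad-Cre, and -0.41 and -0.18 after the correction. In Ad-GFP cells 32 of the 49 were lower at day 2, with 25 intervals below 0 and 12 above, against 33.8% and 45.4% of expressed genes. In Ad-Cre cells 38 were lower, with 32 intervals below 0 and 9 above, against 40.4% and 39.3%. The lowest and highest of the 49 in Ad-GFP cells were the centromere genes Cenph at -0.89 (-1.16 to -0.63) and Cenpk at 0.92 (0.30 to 1.58). Cenpk rested on 30 and 76 reads. Over the 2.5-fold cutoff in Ad-GFP cells, 1 of the 34 and none of the 49 were higher at day 2, against 8.43% of expressed genes, and none of either list was lower, against 13.0%. In Ad-Cre cells 1 of the 34 and 1 of the 49 were higher, against 9.63%, and 3 of the 49 were lower, against 10.5%. Day ratios of the 49 in Ad-Cre cells ran from -1.90 (Anln) to 1.51 (Cenpm), wider than the -1.39 to 0.23 of the mitosis members. Between the populations at day 2, Ect2 (-1.44) and Stmn1 (1.74) of the 49 passed the cutoff, against 9.89% of expressed genes lower and 9.61% higher. After the correction Ect2 stood at -0.68, Stmn1 at 1.48 and Cenph at 1.33, in place of 1.16 for Cenph. The median gap between the day ratios was 0.13 for the 34 and -0.25 for the 49. These genes outside the named rule were picked by their values.

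A further list of 20 genes covered retinoblastoma and E2F control and G1. It held retinoblastoma family genes, the other E2F factors with Tfdp1 and Tfdp2, D-type cyclins, Cdk2, Cdk4, Cdk6, Lin9, Lin52 and Lin54. The median day ratio of the 20 was 0.36 with Ad-GFP and -0.67 with Ad-Cre, and 0.11 and -0.29 after the correction. Over the 2.5-fold cutoff, 1 of the 20 was lower and 2 were higher in Ad-GFP cells, against 13.0% and 8.43% of expressed genes. In Ad-Cre cells 4 were lower and 0 higher, against 10.5% and 9.63%. Ccnd1, cyclin D1, which starts the release, measured 19.0, 0.676, 2.92 and 0.847 RPKM, far highest in Ad-GFP cells at day 0. Its ratio of day 2 over day 0 was -4.81 (-5.22 to -4.44) in Ad-GFP cells, and at day 0 it was -2.71 (-2.92 to -2.50) for Ad-Cre over Ad-GFP. Rb1, the retinoblastoma protein gene, measured 1.47, 6.01, 2.75 and 1.52 RPKM, with a day ratio of 2.03 (1.74 to 2.33) with Ad-GFP and -0.85 (-1.17 to -0.54) with Ad-Cre. E2f1 and E2f2, members that encode factors held in check by retinoblastoma family proteins, were higher at day 2 in both populations, as given above. In Ad-GFP cells E2f1 stood at 0.17 (0.07 to 0.26), near the median of 0.14 for all expressed genes.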

How the data were processed

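RNA-Seq was analysed for 4 libraries, 1 for each infection and day. The authors sequenced 50-base reads, aligned them to NCBI37/mm9 and counted those on exons of RefSeq transcripts. They deposited the read count of each transcript, without normalization, and its RPKM, scaled by transcript length and mapped reads. How reads with several matches were treated is not given in the sources used here.

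Symbols and synonyms of a RefSeq gene table (GRCm38.p6, names alone) were found for 97.8% of transcripts. Ratios of RPKM were computed between libraries in 4 comparisons, with exact binomial 95% intervals from scipy 1.17.1, on 11857 expressed genes. The interval script was tested on simulated data. No test between conditions was run. Coordinates and GC content came from GENCODE vM1, and GC content was found for 93.8% of expressed genes and all 55 members. Promoters came from RefSeq (GRCm38.p6) and were placed on NCBI37/mm9 by exact match. Copies elsewhere in the genome were sought with blastn 2.17.0, as alignments of at least 96% identity over at least 50 bases. TMM factors came from edgeR 4.0.16 in R 4.3.3, with no edgeR test. Python 3.11.15 with pandas 2.3.3, numpy 2.4.6 and, for plots, matplotlib 3.10.9 did the rest.

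Values in every library are given, within each role, for the member with the most reads and those with the highest and lowest day ratio in Ad-GFP cells and the highest and lowest ratio of Ad-Cre over Ad-GFP at day 2. They are also given for the 3 members of each list with the largest gap between the day ratios. Further members named with values in every library (Mcm10, Gins1, Ccne1, Ccnb2, Cdk1, Birc5) and those named by counts were chosen after their values were seen. From the wider lists the genes with the lowest and highest ratio in Ad-GFP cells were named. The members and lists were chosen with earlier results of these data known. Of the alternatives tried, 11 kinds were planned and 2, the correction for length and GC content and the omission of genes with copies elsewhere, were added after seeing the data.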

Additional observations from a re-analysis of the deposited data

Results flagged for a closer look

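For 12 members the day ratio had opposite signs in the Ad-GFP and Ad-Cre libraries, each with an interval that did not hold 0, and the gap is given as Ad-Cre minus Ad-GFP on the log2 scale. The gaps were not tested, since each condition has 1 library. Intervals wholly below and wholly above 0 stood in 33.8% and 45.4% of expressed genes in Ad-GFP cells, and in 40.4% and 39.3% in Ad-Cre cells. How many of all expressed genes had such opposite signs was not counted, so the 12 are not shown to be particular to these lists.

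For 10 of them the level was higher at day 2 in Ad-GFP cells and lower at day 2 in Ad-Cre cells. Those of the replication list were Mcm2 (-0.81), Pola1 (-0.81), Pole (-0.62), Rrm2 (-1.39) and Ccne2 (-1.17). Those of the mitosis list were Ccna2 (-1.10), Ccnb1 (-0.58), Aurka (-0.28), Bub1 (-1.40) and Top2a (-0.62). The opposite held for 2 replication genes, Gins2 (0.81) and Pcna (0.96). After the trend over length and GC content was taken out, the day ratios had opposite signs in 3 of the 12, and in 9 they had the same sign. Mcm2 (0.50 with Ad-GFP and -0.35 with Ad-Cre) and Rrm2 (0.07 and -1.04) kept the order given above, and Pola1 (-0.10 and 0.11) turned it round. The corrected gap was -0.85 for Mcm2, -1.11 for Rrm2, 0.21 for Pola1, 0.99 for Pcna, 0.12 for Gins2, -0.06 for Pole and -0.34 for Ccne2. For the mitosis genes it was -0.62 for Ccna2, -0.02 for Ccnb1, -0.33 for Aurka, -0.53 for Bub1 and 0.24 for Top2a. The part of base composition in these gaps was not tested.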

How the results depend on the processing

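No paired analysis was possible because each condition has 1 library, and for the same reason no replicate could be left out. Intervals cover counting error only. The scaling between libraries and the trend over length and GC content moved several medians. With a minimum of 100 reads and with all transcripts summed, no median moved beyond its counting interval and no count by over 1.5 times. Without the 8 genes with copies over at least 10% of the transcript the same held, but the gap between the day ratios had a median of -0.11 for mitosis and -0.33 for replication, and the replication median at day 2 was -0.28 in place of -0.18.

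In Ad-GFP cells the median day ratio of the mitosis genes was -0.36 with TMM, -0.40 when centred on all expressed genes, -0.41 with the length trend removed and -0.42 with the length and GC trend removed. That of the replication genes was 0.03 centred, 0.03 without the length trend and -0.01 without the length and GC trend. In Ad-Cre cells the replication median was 0.21 with summed counts as library size, -0.10 without the length trend and -0.09 with Top2a, Ccna2, Mybl2 and Cdc25b counted as replication. The mitosis median there was -0.24, -0.29 and -0.29 with summed counts, without the length trend and without both trends. At day 2 the ratio of Ad-Cre over Ad-GFP had a mitosis median of -0.11 with TMM, -0.11 centred, -0.12 with summed counts, -0.09 without the length trend and 0.03 without both, and a replication median of 0.14 without both. The gap between the day ratios, with a median of -0.25 in both lists, turned to 0.10 and 0.06 for replication and 0.11 and 0.16 for mitosis, without the length trend and without both. It was -0.15 and -0.14 with TMM, -0.11 and -0.10 centred and -0.11 in both with summed counts.

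The count of 1 replication gene higher in Ad-GFP cells (E2f2) was 0 with TMM, centring, a 4-fold cutoff, a pseudocount of 1 RPKM, the interval bound past the cutoff or the length trend removed, and 2 at 2-fold. The count of 1 lower mitosis gene there (Kif23) was 2 at 2-fold and 0 at 4-fold. In Ad-Cre cells it was 6 at 2-fold, and 0 with summed counts, a 4-fold cutoff, the pseudocount, the interval bound, the length trend removed or both trends removed. At 2-fold, 1 replication gene was lower and 1 higher in Ad-Cre cells, and 1 was higher without the length trend. Between the populations at day 2, 2 mitosis genes were lower at 2-fold, and 1 replication gene (Tyms) was higher without both trends. Of the 220 single ratios, 51 moved beyond their interval with TMM, 122 without both trends and 2 with the pseudocount.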
